A study of Mus musculus with 27 samples.

Results

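The 29 genes described here encode the enzymes that build cholesterol and fatty acids, together with the main regulators of the sterol branch and 1 sterol carrier. They were taken by gene symbol from the 54532 genes of the deposited table, with earlier results of these data known, and all 29 were found. By role they divide into 7 enzymes that lead from acetyl-CoA to farnesyl diphosphate, 11 enzymes that turn this into squalene and then cholesterol, 6 regulators and carriers of sterols, and 5 enzymes of fatty acid synthesis.

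Cells make cholesterol from acetyl-CoA through mevalonate, squalene and lanosterol, and they make palmitate from the same acetyl-CoA through malonyl-CoA. When membrane sterol is low, Scap carries the SREBP transcription factors, encoded by Srebf1 and Srebf2, out of the endoplasmic reticulum, and the Insig proteins hold them back when sterol is plentiful. In skin, epidermal keratinocytes need cholesterol and fatty acids for the permeability barrier, and sebaceous glands and dermal adipocytes make large amounts of lipid. In liver, thyroid hormone is known to raise genes of fatty acid synthesis.

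The tissue was dorsal skin of C3H mice, 9 libraries in each of 3 groups. Blank skin was left untreated. The solvent alone was put on Vehicle skin, and on TDM skin it carried TDM10842, which the submitters describe as an agonist of the thyroid hormone receptor. Both were given as 2 applications of 60 µL, at 0 and 24 h, so solvent and handling are common to these 2 groups. The labels give neither the age of the mice nor whether each library came from a separate animal, so that a p-value here sets a difference against the library-to-library spread, which may in part be technical. The libraries held 15412332 to 17599066 counted reads each. The extraction text in the labels speaks of retina, but summed retina markers (6 genes) reached at most 17.5 CPM (read counts scaled to a common library depth) in any library, with Rcvrn at 0 in 15 of 27 libraries, whereas basal keratinocyte markers (6 genes) summed to at least 4009 CPM in every library. In these bulk samples, fewer cells of a type and less RNA per cell cannot be told apart.

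The comparison of TDM with Vehicle asks which transcripts the compound changed beyond its solvent. Of the 29 members, 4 rose and 5 fell by the edgeR quasi-likelihood test at an adjusted p under 0.05 over all 17232 genes tested. That is 13.8% and 17.2% of the members, against 12.0% of all tested genes that rose and 11.7% that fell, so the members were called at about the rate of all genes. Their median log2 fold change was -0.21, against 0.01 for all genes. The largest falls were in Hsd17b7, which acts late in cholesterol synthesis, and in Acacb, a carboxylase that makes malonyl-CoA. Ebp, Sc5d and Dhcr7, which act near the end of the sterol route, rose with the sterol carrier Stard4, while Tm7sf2, Pmvk and Insig2 fell.

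**Figure D1:**
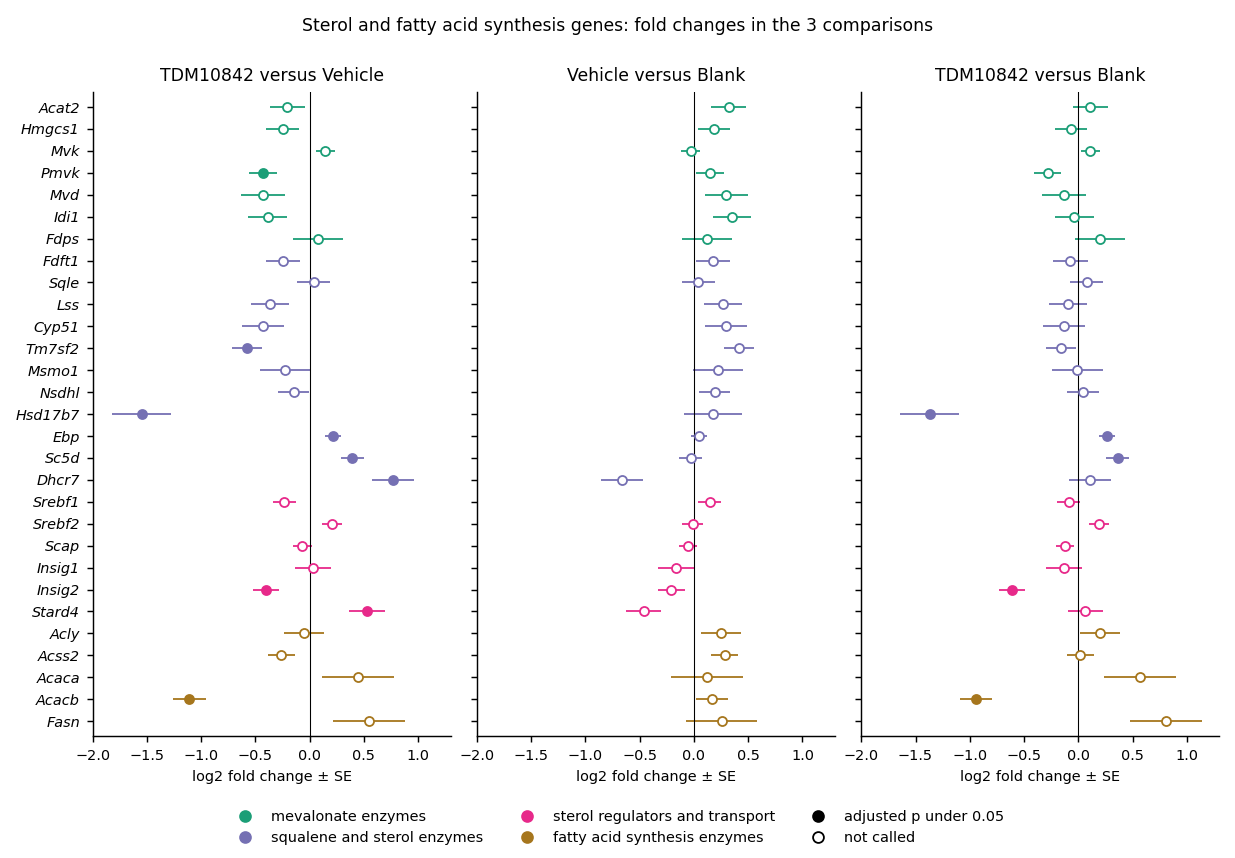
Log2 fold change of each of the 29 members, with its standard error as a bar, in the 3 comparisons, for 9 libraries per group; filled points passed an adjusted p under 0.05 in edgeR and colours give the role. Hsd17b7 at -1.55 and Acacb at -1.11 lie farthest to the left in the comparison of TDM with Vehicle, and no point is filled in the comparison of Vehicle with Blank.

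Vehicle was compared with Blank to find what the solvent and its application changed. None of the 29 members passed the edgeR test, against 0.894% of all genes that rose and 1.86% that fell, and 4 members had an unadjusted p under 0.05. The count of 475 genes behind those shares was unstable when 1 library was left out. Leaving out any 1 of Vehicle replicates 1, 3, 6 and 8, or of Blank replicates 4, 6 and 9, left 0 genes. Leaving out Blank replicate 7 left 1, and leaving out Vehicle replicate 7 gave 1289. In those fits with 0 genes called, 3430 to 4327 genes still had an unadjusted p under 0.05, against 4468 with all libraries. DESeq2 called Tm7sf2 higher and Dhcr7 lower in Vehicle skin. Against Blank, TDM skin had 2 members higher (Ebp and Sc5d) and 3 lower (Hsd17b7, Acacb and Insig2), that is 6.9% and 10.3%, where 11.6% of all genes rose and 4.63% fell. The median member log2 fold change against Blank was -0.01, and that of all genes -0.02. The 3 comparisons share groups of libraries, so they do not stand as independent evidence of one another. Over all of them, 9 members were called at least once and 20 were not called.

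Levels differed widely between the members. Per length, on the FPKM scale (fragments per kilobase of gene, scaled to library depth), Fasn was highest in Blank skin at 109 ± 31.5 (SD, n = 9), followed by Acly at 53.5 ± 9.94, Hmgcs1 at 52.6 ± 10.2 and Msmo1 at 47.9 ± 12.9. The lowest were Stard4 at 4.41 ± 1.38, Acss2 at 3.79 ± 0.466, Tm7sf2 at 2.96 ± 0.719 and Fdps at 0.381 ± 0.121 FPKM. Of the 28 pairs of neighbours in this order, 23 differed by less than the larger of their SDs, so most neighbours cannot be ordered, but Fasn stood above Acly in each group mean. From Blank to TDM skin, Acacb went from rank 10 to rank 18 of the 29, Insig2 from rank 5 to rank 11 and Hsd17b7 from rank 20 to rank 25.

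Among the 7 mevalonate enzymes, only Pmvk was called in any comparison. Pmvk phosphorylates phosphomevalonate. Its lowest, median and highest levels were 26.6, 40.2 and 46.5 CPM in Blank, 30.1, 41.7 and 59.0 CPM in Vehicle, and 26.2, 30.0 and 42.1 CPM in TDM libraries. The groups overlapped, with 5 of the 9 TDM libraries below every Vehicle library. Mean Pmvk fell from 43.0 ± 9.04 CPM in Vehicle to 31.9 ± 5.56 CPM in TDM skin (SD, n = 9 each), a log2 fold change of -0.43 ± 0.13 SE (adjusted p = 0.0156). Against Blank its log2 fold change was -0.28 (adjusted p = 0.127).

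The other 6 mevalonate enzymes gave log2 fold changes between -0.43 and 0.14 for TDM against Vehicle, with 2 of the 7 enzymes above 0 and 5 below it. Hmgcs1, which makes the precursor that is reduced to mevalonate, had medians of 261 CPM in Blank, 270 CPM in Vehicle and 207 CPM in TDM skin, in ranges of 157 to 299, 209.6 to 371 and 161 to 349.8 CPM. Mvd, which forms isopentenyl diphosphate, had medians of 51.3, 51.6 and 39.2 CPM in the same order, and Idi1, which isomerizes that product, 35.4, 41.3 and 32.2 CPM. In each of these the groups overlapped, and the adjusted p for TDM against Vehicle was 0.224 for Hmgcs1, 0.115 for Mvd and 0.113 for Idi1. Mvk, the kinase that acts on mevalonate itself, had medians of 35.99, 35.6 and 39.8 CPM and a log2 fold change of 0.14 (adjusted p = 0.235). Acat2, which joins acetyl-CoA units, had medians of 81.4, 102 and 78.1 CPM (TDM against Vehicle adjusted p = 0.36).

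Fdps, the farnesyl diphosphate synthase, carried too few reads to follow. It had 7 to 42 reads per library and medians of 1.64, 1.74 and 2.03 CPM in Blank, Vehicle and TDM skin. Of its 50-base words, 26.2% occur in other annotated genes. The same-strand Gm43738 holds 23.4% of them (mean 0.1 reads per library) and Gm3571 12.1% (mean 114.1 reads). Reads of Fdps may therefore have been lost to or split with its copies when they were counted. Acat2 shares 39.1% of its words with its neighbour Acat3 (mean 37.0 reads) and 11.2% with Tcp1 (mean 2526.6 reads). Idi1 shares 17.7% with Gm13502. The values of these 3 genes are uncertain for that reason.

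Past farnesyl diphosphate, 5 of the 11 squalene and sterol enzymes were called for TDM against Vehicle, 3 higher and 2 lower (27.3% and 18.2%, where 12.0% of all genes rose and 11.7% fell). Hsd17b7, a ketosteroid reductase needed to remove methyl groups from sterol intermediates, showed the largest difference of all members. The gene lies on the minus strand of chr1:169949535-169969241 (GRCm38). Its lowest, median and highest levels were 28.8, 57.4 and 128 CPM in Blank, 28.6, 59.6 and 118 CPM in Vehicle, and 17.7, 23.7 and 34.6 CPM in TDM libraries. Blank and Vehicle libraries were widely spread, and 8 of the 9 TDM libraries lay below every library of either. Mean Hsd17b7 fell from 70.6 ± 32.4 to 24.2 ± 4.88 CPM (SD, n = 9 each), to 0.343 of its Vehicle level, and the log2 fold change was -1.55 ± 0.27 SE (edgeR adjusted p = 0.0007). The fall against Blank was to 0.387 of that group's level (adjusted p = 0.00096).

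Ebp, the isomerase that moves a ring double bond, and Sc5d, the desaturase that follows it, were both higher in TDM skin. Ebp levels ran from 32.4 over a median of 38.1 to 44.4 CPM in Blank, from 32.9 over 38.0 to 47.0 CPM in Vehicle, and from 36.4 over 45.5 to 50.6 CPM in TDM libraries. The difference was small. Of the 9 TDM libraries, 8 lay above the Vehicle median, 4 above every Vehicle library and 7 above every Blank library. Ebp rose 1.16-fold against Vehicle (log2 fold change 0.22 ± 0.07 SE, adjusted p = 0.0299) and 1.20-fold against Blank (adjusted p = 0.0113). The call against Vehicle ended in 7 of the 27 fits that left out 1 library, namely Blank replicate 1, Vehicle replicate 1, 3, 4 or 8, or TDM replicate 5 or 8, with log2 fold changes of 0.17 to 0.20. It also ended in 9 of 15 other settings, among them the replicate block (adjusted p = 0.0517) and each of the 5 marker covariates (adjusted p = 0.0521 to 0.484).

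For Sc5d the lowest, median and highest levels were 17.7, 21.9 and 28.4 CPM in Blank, 16.4, 21.6 and 30.3 CPM in Vehicle, and 25.0, 27.3 and 36.7 CPM in TDM libraries. All 9 TDM libraries lay above the median of each of the other groups, although the ranges overlapped. Sc5d rose 1.31-fold against Vehicle (log2 fold change 0.39 ± 0.11 SE, adjusted p = 0.0103) and 1.29-fold against Blank (adjusted p = 0.0183). Without Blank replicate 1 or 3 the adjusted p against Blank was 0.0512 or 0.0559.

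Tm7sf2, which reduces a sterol double bond soon after the Cyp51 step, stood lower in TDM than in Vehicle skin. Its lowest, median and highest levels were 8.7, 18.5 and 21.1 CPM in Blank, 18.2, 22.9 and 27.03 CPM in Vehicle, and 12.4, 14.5 and 19.6 CPM in TDM libraries. Against Vehicle, 8 of 9 TDM libraries lay below the lowest value, but the TDM range lay within that of Blank. Mean Tm7sf2 fell from 22.3 ± 3.59 to 14.9 ± 2.36 CPM (SD), with a log2 fold change of -0.58 ± 0.14 SE (adjusted p = 0.00527), and its log2 fold change against Blank was -0.16 (adjusted p = 0.458). In GENCODE M21 it overlaps Vps51 on the same strand over 532 bases, 12.08% of its exon bases, so part of its reads may have been assigned by the overlap. The deposited length of Tm7sf2, 5593 bases, is longer than the exons behind that share. The overlap of the gene as it was counted may therefore differ.

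Dhcr7, the reductase of the final step, stood lowest in Vehicle skin. From lowest over median to highest, its levels were 22.7, 34.6 and 71.6 CPM in Blank, 16.3, 25.0 and 35.7 CPM in Vehicle, and 30.1, 37.1 and 62.8 CPM in TDM libraries. All 9 TDM libraries lay above the Vehicle median, 5 lay above every Vehicle library, and none lay outside the Blank range. Dhcr7 rose 1.70-fold against Vehicle (log2 fold change 0.77 ± 0.19 SE, adjusted p = 0.00737), with a log2 fold change of -0.66 for Vehicle against Blank (adjusted p = 0.0557) and 0.11 for TDM against Blank (adjusted p = 0.757). The Vehicle-to-Blank difference passed the test without Blank replicate 2 or 3, Vehicle replicate 7, or TDM replicate 7 or 9, with adjusted p between 0.0311 and 0.0475.

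Levels of Dhcr7 moved with the summed level of 6 suprabasal keratinocyte markers (Krt1, Krt10, Lor, Ivl, Dsg1a and Calml3). This sum had a median of 3107 CPM in Blank, 1228 CPM in Vehicle and 2105 CPM in TDM skin, in ranges of 1262 to 5652, 707 to 2404 and 763 to 5278 CPM. Blank replicate 9 and TDM replicate 9 were the highest of their groups in both Dhcr7 and the marker sum, and Vehicle replicate 1 was the lowest of all libraries in both. The Vehicle library with the most Dhcr7, replicate 7, had a sum of 1808 CPM, which was not the highest of its group. All 6 markers had reads in every library, and 3 of the 6 rose against Vehicle. With the marker level as a covariate, the log2 fold change of Dhcr7 for TDM against Vehicle was 0.34 (adjusted p = 0.137) and for Vehicle against Blank -0.01 (adjusted p = 0.997). Against Vehicle it was 0.28 (adjusted p = 0.558) with skeletal muscle and 0.52 (adjusted p = 0.179) with basal keratinocyte markers, and the call held with sebaceous (0.79, adjusted p = 0.0193) and adipocyte markers (0.78, adjusted p = 0.0103).

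**Figure D2:**
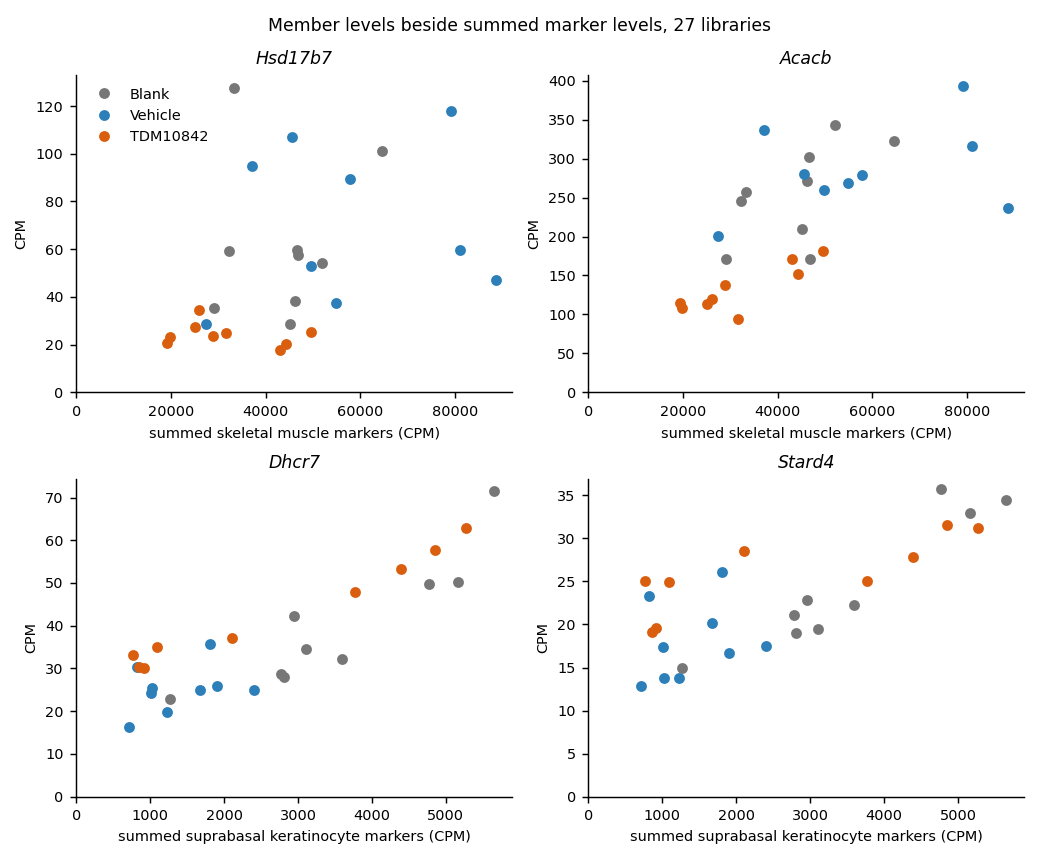
Level of Hsd17b7 and Acacb against the summed skeletal muscle markers (upper panels), and of Dhcr7 and Stard4 against the summed suprabasal keratinocyte markers (lower panels), all in CPM, with 1 point per library and colour for the group. Dhcr7 is highest in Blank replicate 9, at 71.6 CPM, where the suprabasal sum is 5652 CPM, while Hsd17b7 stays at or below 34.6 CPM in the TDM libraries over the whole range of their muscle sums.

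The remaining squalene and sterol enzymes were not called. Sqle, the squalene epoxidase that controls entry into the sterol part of the route, had medians of 70.5, 60.5 and 74.6 CPM in Blank, Vehicle and TDM skin (TDM against Vehicle adjusted p = 0.885). Lss, which closes the sterol rings, had medians of 54.6, 60.9 and 48.0 CPM (adjusted p = 0.133), and Cyp51, the lanosterol demethylase, 133, 126 and 100.9 CPM (adjusted p = 0.107). All groups overlapped in these genes. Msmo1, a methyl sterol oxidase, ranged from 146 to 404, 157 to 481 and 167 to 513 CPM, with medians of 313, 317 and 230.5 CPM (adjusted p = 0.498). Nsdhl, which works in the same demethylation complex as Hsd17b7, had medians of 42.2, 44.5 and 38.6 CPM and a log2 fold change of -0.15 (adjusted p = 0.481). Fdft1, the squalene synthase, had medians of 77.2, 82.2 and 64.95 CPM, but 774 bases of it overlap the far more abundant Ctsb on the opposite strand, and the sources used here do not say whether counting used strand.

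Promoter sequence is shown for Hsd17b7 and Acacb, which fell most, for Sc5d, which rose and shares the E-box with Hsd17b7, and for Hmgcs1, the member with a match to the sterol regulatory element. Each line gives the 250 bases before a start site, 5′ to 3′ on the gene's strand, from RefSeq on GRCm38.p6. The Acacb start site lies inside the annotated gene (chr5:114146535-114250761), so its window is not the sequence before the gene's first base. For Sc5d and Hmgcs1, the bases at the end of the window after the start were not found in an annotated transcript of the gene. Capitals mark matches on either strand to the sterol regulatory element TCACNCCAC bound by SREBP, the E-box CACGTG, the CCAAT box and the GC box GGGCGG.
Hsd17b7 (chr1:169969206-169969455, minus strand): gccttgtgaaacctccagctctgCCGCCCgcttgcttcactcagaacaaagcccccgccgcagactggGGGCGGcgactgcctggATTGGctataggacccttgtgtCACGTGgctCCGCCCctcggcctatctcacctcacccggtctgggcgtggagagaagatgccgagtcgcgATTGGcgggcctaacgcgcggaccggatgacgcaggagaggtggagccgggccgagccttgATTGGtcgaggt
Acacb (chr5:114165268-114165517, plus strand): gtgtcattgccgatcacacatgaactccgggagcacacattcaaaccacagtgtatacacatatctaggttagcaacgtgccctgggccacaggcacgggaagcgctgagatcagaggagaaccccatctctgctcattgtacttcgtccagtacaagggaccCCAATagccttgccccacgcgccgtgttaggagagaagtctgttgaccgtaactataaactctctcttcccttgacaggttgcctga
Sc5d (chr9:42264301-42264550, minus strand): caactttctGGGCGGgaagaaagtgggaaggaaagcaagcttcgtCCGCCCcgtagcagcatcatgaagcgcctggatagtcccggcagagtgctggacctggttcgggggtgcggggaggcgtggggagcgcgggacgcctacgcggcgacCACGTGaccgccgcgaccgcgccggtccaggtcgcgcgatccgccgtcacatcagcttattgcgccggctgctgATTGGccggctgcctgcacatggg
Hmgcs1 (chr13:119690101-119690350, plus strand): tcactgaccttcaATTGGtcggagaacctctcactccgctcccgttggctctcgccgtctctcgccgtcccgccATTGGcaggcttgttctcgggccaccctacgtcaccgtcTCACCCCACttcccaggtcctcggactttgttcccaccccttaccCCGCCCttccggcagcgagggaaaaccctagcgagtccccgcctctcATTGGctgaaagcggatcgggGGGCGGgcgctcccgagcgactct

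Promoter windows were found for 25 of the 29 members, 33 windows in all, each with 250 bases before the start and 50 after. TCACNCCAC occurred in 1 of these 33 windows (3.03%), that of Hmgcs1, against 1.24% of all 32851 windows. The E-box occurred in 6 (18.2% against 7.15%), among them those of Hsd17b7 and Sc5d, whose transcripts moved in opposite directions. CCAAT occurred in 69.7% against 37.4%, and GGGCGG in 75.8% against 35.7%. The nuclear receptor half-site AGGTCA occurred in 21.2% against 16.3%, and a direct repeat of it with 4 bases between, the arrangement thyroid hormone receptors are known to bind, in 0 of the 33 windows and in 0.015% of all. Windows of 1 gene share sequence, and a match or its lack describes only these letters in these windows.

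Of the 6 regulators and carriers, Insig2 and Stard4 were called. Insig2 holds the SREBP precursors in the endoplasmic reticulum. Its lowest, median and highest levels were 95.1, 117 and 135 CPM in Blank, 62.8, 109.6 and 140.5 CPM in Vehicle, and 62.0, 79.5 and 90.55 CPM in TDM libraries. All 9 TDM libraries lay below every Blank library, a separation in this direction that 0.313% of all tested genes showed, while the TDM range overlapped the lower Vehicle libraries. Relative to Blank, Insig2 fell to 0.654 (log2 fold change -0.61 ± 0.12 SE, adjusted p = 0.000899) and to 0.755 of its Vehicle level (log2 fold change -0.41 ± 0.12 SE, adjusted p = 0.0175). It lies on the minus strand of chr1:121304353-121332589 and shares no 50-base word with another gene.

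Stard4 carries cholesterol between membranes. Libraries ranged from lowest over median to highest at 14.99, 22.3 and 35.8 CPM in Blank, 12.9, 17.4 and 26.1 CPM in Vehicle, and 19.1, 25.1 and 31.6 CPM in TDM libraries. As for Dhcr7, Vehicle libraries were the low group, all 9 TDM libraries lay above the Vehicle median, and none lay outside the Blank range. Stard4 rose 1.44-fold against Vehicle (log2 fold change 0.53 ± 0.16 SE, adjusted p = 0.0204), and its log2 fold changes for Vehicle against Blank and TDM against Blank were -0.46 (adjusted p = 0.0898) and 0.06 (adjusted p = 0.825). Without Vehicle replicate 1 or 3 the adjusted p against Vehicle was 0.0526 or 0.0505, and without Blank replicate 3 or Vehicle replicate 7 that of Vehicle against Blank was 0.0459 or 0.0405. With the suprabasal markers as a covariate its log2 fold change against Vehicle was 0.27 (adjusted p = 0.243).

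The other 4 regulators, Srebf1, Srebf2, Scap and Insig1, were not called. Srebf1 had medians of 195, 199.9 and 173 CPM in Blank, Vehicle and TDM skin (TDM against Vehicle log2 fold change -0.23, adjusted p = 0.111). Srebf2, the SREBP gene tied mainly to sterol synthesis, had medians of 142, 129 and 160.5 CPM (log2 fold change 0.20, adjusted p = 0.113), with all 9 TDM libraries above the Vehicle median. Srebf2 was called higher without Vehicle replicate 6 (adjusted p = 0.0277), and Srebf1 lower without Vehicle replicate 3 (adjusted p = 0.043). Scap and Insig1 gave log2 fold changes of -0.07 (adjusted p = 0.597) and 0.03 (adjusted p = 0.904). Insig1, itself a target of SREBP in other tissues, ranged from 57.8 to 139 CPM in Blank, 33.5 to 121 CPM in Vehicle and 64.5 to 97.1 CPM in TDM libraries. These levels are of transcripts and carry no information on processing of the SREBP proteins.

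**Figure D3:**
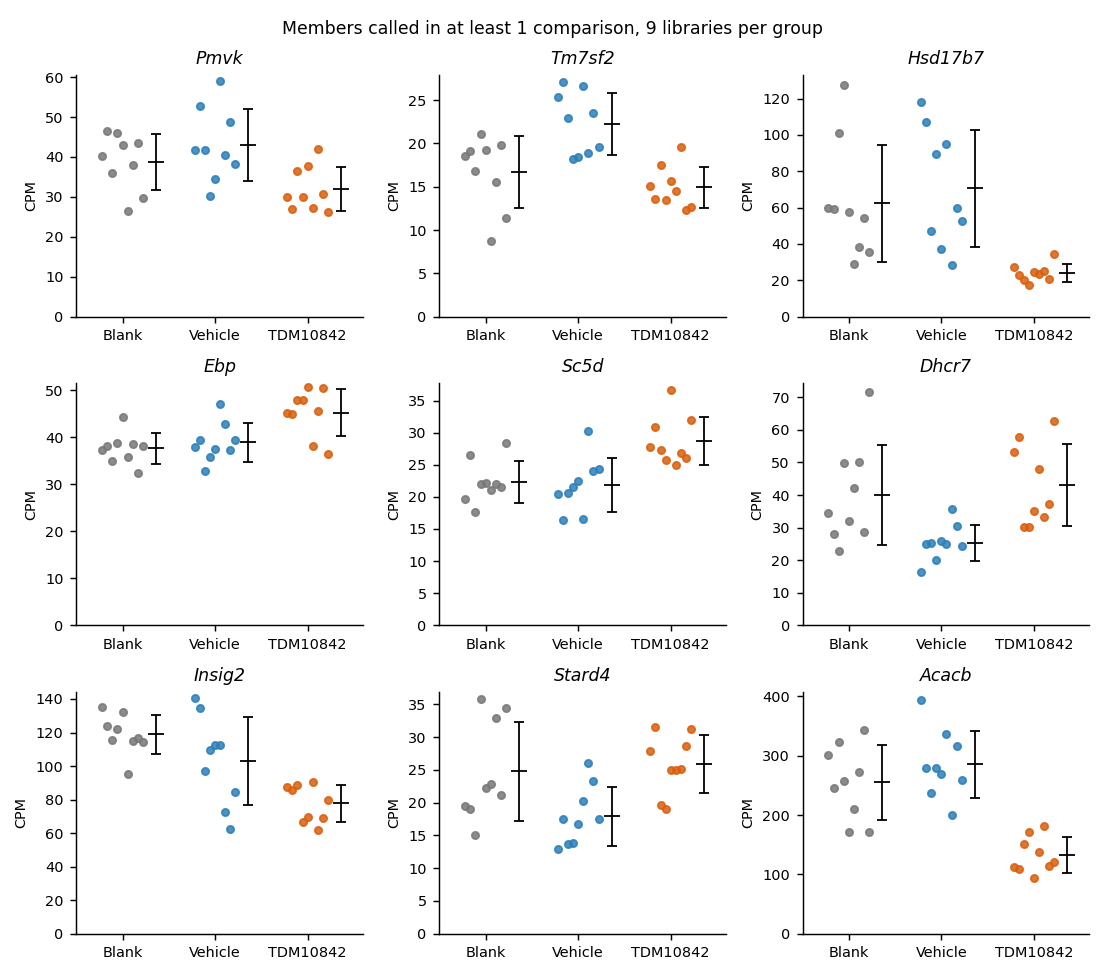
Level in CPM of the 9 members called in at least 1 comparison, with 1 point per library and, beside each group, the mean with 1 SD. The TDM points of Acacb lie between 94.6 and 182 CPM, below all Vehicle points, and those of Hsd17b7 between 17.7 and 34.6 CPM.

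In the fatty acid branch, Acacb fell and the other 4 enzymes were not called. Acacb encodes the acetyl-CoA carboxylase at the mitochondrial surface, whose malonyl-CoA restrains fatty acid import for oxidation, and it is known as the form of muscle and other oxidative tissue. The gene lies on the plus strand of chr5:114146535-114250761. Its lowest, median and highest levels were 171, 257 and 344 CPM in Blank, 200.05, 279 and 393 CPM in Vehicle, and 94.6, 120.3 and 182 CPM in TDM libraries. Every TDM library lay below every Vehicle library, which 0.313% of all tested genes showed in this direction, and 7 of 9 lay below every Blank library. Mean Acacb fell from 286 ± 56.8 to 132 ± 29.9 CPM, to 0.464 of its Vehicle level (log2 fold change -1.11 ± 0.15 SE, adjusted p = 2.75e-05), and to 0.520 of its Blank level (adjusted p = 0.000147).

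Skeletal muscle markers were lower in TDM skin as well. Of 14 tested (15 listed), 13 fell against Vehicle and 1 against Blank, and their summed level had a median of 28913 CPM in TDM, 54887 CPM in Vehicle and 46229 CPM in Blank skin, in ranges of 19276 to 49565, 27442 to 88672 and 29167 to 64664 CPM. With the muscle marker level as a covariate, only 232 genes were called for TDM against Vehicle in all, 2 of them members. Acacb gave a log2 fold change of -0.80 (adjusted p = 0.00576) and Hsd17b7 -1.49 (adjusted p = 0.0306) in that fit. Against Blank they gave log2 fold changes of -0.75 (adjusted p = 0.00079) and -1.34 (adjusted p = 0.00407). The calls of the other 7 members against Vehicle ended, with adjusted p of 0.16 to 0.784. The log2 fold changes of Pmvk (-0.40) and Insig2 (-0.43) stayed near their values without the covariate. Those of Tm7sf2 (-0.46), Sc5d (0.25), Ebp (0.13), Dhcr7 (0.28) and Stard4 (0.12) were smaller in size than without it.

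Fasn, the fatty acid synthase, and Acaca, the cytosolic carboxylase that feeds it, had the largest ratios of highest to lowest library among the members, 14.8 and 9.91. Fasn had lowest, median and highest levels of 774, 1104 and 1909 CPM in Blank, 291 to 4305 CPM around a median of 1273 CPM in Vehicle, and 1189, 1720.3 and 3468 CPM in TDM libraries. Its highest level was in Vehicle replicate 7 and its lowest in Vehicle replicate 3. All 9 TDM libraries lay above the Blank median and 4 above every Blank library. Mean Fasn was 2099 ± 861 CPM in TDM, 1434 ± 1154 CPM in Vehicle and 1201 ± 347 CPM in Blank skin, a log2 fold change of 0.55 ± 0.33 SE against Vehicle (adjusted p = 0.229) and 0.81 ± 0.33 SE against Blank (adjusted p = 0.0979). The authors' deposited table lists Fasn against Blank at a log2 fold change of 0.79 with an adjusted p of 0.00379. In 10 of 15 other settings Fasn was also not called against Blank. It was called higher with only the 2 groups compared and with adipocyte or suprabasal markers as a covariate. Leaving out Vehicle replicates 7 and 8, or 3, 7 and 8, also gave this call.

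Acaca showed the same order of libraries at its ends. Levels were 60.6, 88.9 and 180.3 CPM (lowest, median and highest) in Blank, 34.6, 79.9 and 343 CPM in Vehicle, and 81.9, 138 and 236 CPM in TDM libraries, with Vehicle replicate 3 lowest and replicate 7 highest of all 27. Its log2 fold change was 0.45 (adjusted p = 0.335) against Vehicle and 0.57 (adjusted p = 0.258) against Blank. Without Vehicle replicate 7, Acaca against Vehicle gave 0.94 (adjusted p = 0.00683) and Fasn 0.97 (adjusted p = 0.00955), and Fasn against Blank had an adjusted p of 0.035. Acaca shares 29.2% of its 50-base words with Gm5182, so its count may be split.

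Acly, which makes cytosolic acetyl-CoA from citrate, had medians of 277, 287 and 327 CPM in Blank, Vehicle and TDM skin and a log2 fold change of -0.05 against Vehicle (adjusted p = 0.867). Acss2, which makes it from acetate, had medians of 40.1, 44.5 and 38.4 CPM and a log2 fold change of -0.26 (adjusted p = 0.124). Both were also highest of all 27 libraries in Vehicle replicate 7, at 758 and 74.2 CPM. The adipocyte marker sum of that library was 10162 CPM, within a Vehicle range of 5659 to 14429.5 CPM. Car3 and Cfd, with means of 4734 and 2081 CPM over all libraries, weigh most in this sum. Adipoq, Lep and Plin1, with means of 230, 34.9 and 240 CPM, weigh little in it. With the mean log2 CPM of the adipocyte markers as a covariate, Fasn was called higher against Blank. In that fit Fasn, Acaca, Acly and Acss2 were not called against Vehicle. The part of adipocytes in the levels of Vehicle replicate 7 was not tested. Fibroblast markers (6 genes) summed to 31149 CPM in Vehicle replicate 7, the highest of its group, and to 3445 and 3189 CPM in replicates 3 and 8, which had the least Fasn and Acaca. Their part in the Fasn and Acaca levels was not tested.

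**Figure D4:**
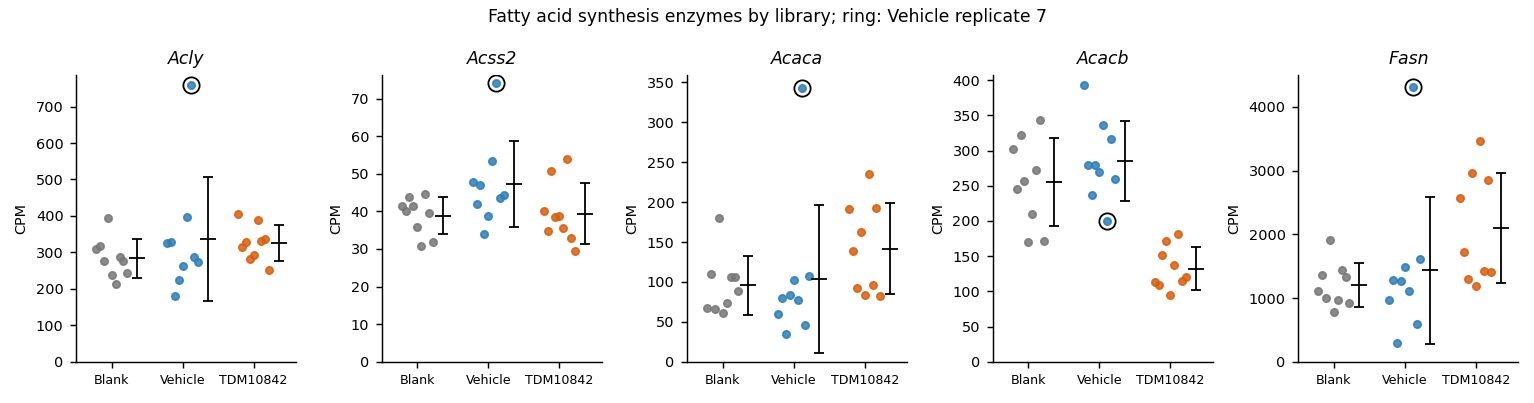
Level in CPM of the 5 fatty acid synthesis enzymes in each library, with the group mean and 1 SD beside the points and a ring around Vehicle replicate 7. The ringed library is highest for Acly, Acss2, Acaca and Fasn, at 4305 CPM for Fasn, and lowest of the Vehicle libraries for Acacb.

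Sterol enzymes were high or low together in single libraries of every group. In Blank replicate 6, 10 of the 18 sterol enzymes had their lowest level of all 27 libraries, and in Vehicle replicate 6, 9 had their highest. In TDM replicate 7, 17 of the 18 lay above their median over all libraries. The number above that median had a median of 9 in Blank libraries (1 to 16), 12 in Vehicle (2 to 16) and 5 in TDM (2 to 17), so the groups overlapped over nearly their whole range. Without TDM replicate 7, Mvd, Idi1, Lss, Cyp51, Srebf1 and Acss2 were also called lower against Vehicle, with adjusted p of 0.0321 to 0.0473. Cyp51 was also called lower without Vehicle replicate 7 (adjusted p = 0.0424) and Idi1 without Vehicle replicate 3 (adjusted p = 0.0473).

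Basal keratinocyte markers were extreme in some of the same libraries. Their sum was lowest of the Blank libraries in replicate 6, at 4009 CPM, highest of all in Vehicle replicate 6, at 13297 CPM, and highest of the TDM libraries in replicate 7, at 6824 CPM. Vehicle replicate 3 also had a high sum, 11955 CPM, while its sterol enzymes summed to 1281 CPM, below the Vehicle median of 1341 CPM. Of these 6 markers 5 fell against Vehicle, and their summed level had a median of 5148 CPM in TDM, 6771 CPM in Vehicle and 6326 CPM in Blank skin. With their level as a covariate, Acacb was the only member called against Vehicle (log2 fold change -0.93, adjusted p = 0.00196), among 373 genes in all, and Hsd17b7 gave -1.12 (adjusted p = 0.0506). Against Blank, the same 5 members were called as without it, with Hsd17b7 at -1.16 (adjusted p = 0.00363).

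**Figure D5:**
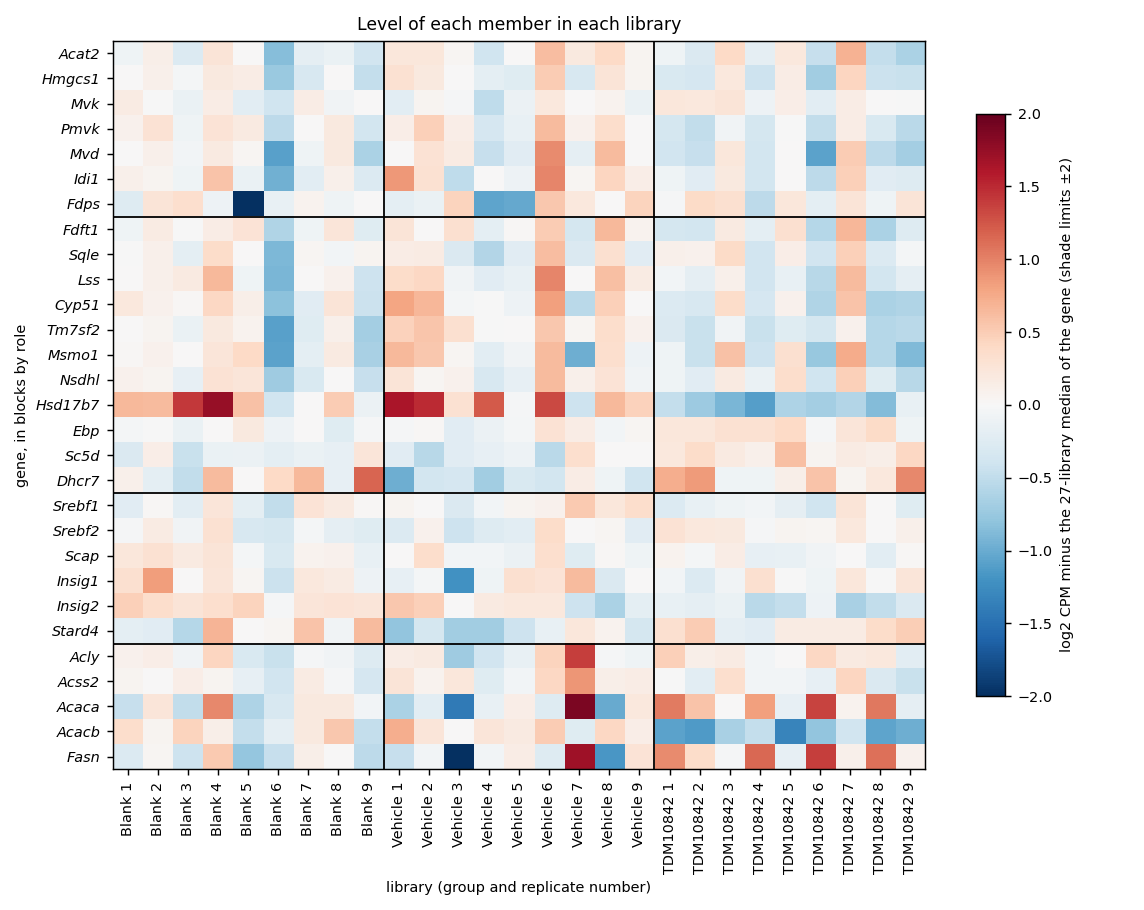
Log2 CPM of each member minus its median over the 27 libraries, with genes in rows by role and libraries in columns by group; red is above the median and blue below, and shades end at 2 in either direction. Blank replicate 6 is blue through most sterol enzymes and Vehicle replicate 6 red, while Fasn and Acaca are darkest red in Vehicle replicate 7, and Hsd17b7 is blue in all 9 TDM libraries.

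Sebaceous gland markers, of which 8 were listed and all had reads in every library, gave 1 call higher and 2 lower against Vehicle and 3 lower against Blank. Their summed level had medians of 1357, 1147 and 1160 CPM in Blank, Vehicle and TDM skin. Krt79 and Far2, with means of 607 and 436 CPM over all libraries, weigh most in this sum. The covariate was instead the mean log2 CPM of the markers. Their median log2 fold change was -0.39 against Vehicle, with 3 above 0 and 5 below it. Against Blank it was -0.55, with 2 above 0 and 6 below it. With their level as a covariate, Hsd17b7 against Vehicle gave a log2 fold change of -0.92 (adjusted p = 0.0128), and Acacb was called as well (adjusted p = 0.00102). Dhcr7 (0.79, adjusted p = 0.0193) and Stard4 (0.55, adjusted p = 0.0461) also stayed called against Vehicle. Insig2 gave -0.12 (adjusted p = 0.409), and the calls of Pmvk, Tm7sf2, Ebp and Sc5d ended, with adjusted p of 0.0732 to 0.157 and log2 fold changes of -0.29, -0.36, 0.22 and 0.29. Against Blank, Hsd17b7 gave -0.38 (adjusted p = 0.504), Insig2 -0.16 (adjusted p = 0.467) and Acacb -0.78 (adjusted p = 0.0748), and none of the members was called. That fit called 108 genes in all, where the fit without the covariate called 2793.

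Genes of the pathways that surround these routes were mixed in direction. Their counts stand against 12.0% of all genes that rose and 11.7% that fell against Vehicle, and 11.6% and 4.63% against Blank. In the isoprenoid branch, which uses the same farnesyl diphosphate, 1 of 11 genes rose and 2 fell against Vehicle, and 2 rose against Blank. Pdss1, a subunit of the enzyme that makes the coenzyme Q tail, rose 2.09-fold against Vehicle (adjusted p = 0.0125) and 2.63-fold against Blank (adjusted p = 0.00198), while its partner Pdss2 fell to 0.707 of its Vehicle level (adjusted p = 0.00685). Dhdds, which makes dolichol, rose 1.14-fold against Blank (adjusted p = 0.0156). Of 8 genes for SREBP processing and turnover, 1 rose and 1 fell against Vehicle and 2 fell against Blank. Mbtps1, the protease that makes the first cut in SREBP, rose 1.19-fold against Vehicle (adjusted p = 0.00858), and Tmem97 fell to 0.765 (adjusted p = 0.0495). Erlin1 fell to 0.838 of the level in Blank skin (adjusted p = 0.0229).

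Among 10 genes of LXR (the liver X receptor, a sterol sensor) and sterol export, none rose and 2 fell against each of the other groups. They were Soat1, which esterifies cholesterol for storage, at 0.574 of its Vehicle level (adjusted p = 0.00218) and 0.628 of its Blank level (adjusted p = 0.00499), and Lpcat3, which puts unsaturated fatty acids into phospholipids, at 0.585 (adjusted p = 0.000243) and 0.572 (adjusted p = 0.00011).

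Among 18 genes that supply, activate and esterify fatty acids, 4 rose and 3 fell against Vehicle, and as many against Blank. Agpat2, which makes phosphatidic acid for glycerolipids, rose 2.04-fold against Vehicle (adjusted p = 0.000886) and 2.45-fold against Blank (adjusted p = 6.01e-05). Mlxipl, a glucose-sensing transcription factor of lipid synthesis, fell to 0.627 of its Vehicle level (adjusted p = 0.00283), having been 1.55-fold higher in Vehicle than in Blank (adjusted p = 0.0323). Thrsp, a lipogenic gene known to respond to thyroid hormone in liver, rose 3.72-fold against Blank (adjusted p = 0.00284). That comparison takes in solvent and handling along with the compound, and the Thrsp value against Vehicle is not reported here. Of 12 fatty acid oxidation genes, 1 rose and 5 fell against Vehicle (8.33% and 41.7%), and 2 fell against Blank (16.7%). Cpt1a, the mitochondrial import step that malonyl-CoA restrains, rose 1.46-fold against Vehicle (adjusted p = 0.00209). Acadm, a dehydrogenase of medium-chain fatty acids, fell to 0.631 (adjusted p = 0.0009) against Vehicle and 0.704 against Blank (adjusted p = 0.00428).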

How the data were processed

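Members and gene lists were chosen with earlier results of these data known. The authors deposited 1 table of 54532 genes with read counts per gene and FPKM for each library, per the file headers, and their own log2 fold changes and p-values, with no test named in those sources. Each FPKM is the count over gene length and 1 constant per library. The submitters' processing notes name Bowtie 0.12.2 and mm9, but 98.26% of 54409 genes found in GENCODE M21 had that GRCm38 annotation's coordinates, so positions are given on GRCm38. The labels' protocols name the Illumina TruSeq RNA kit.

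Genes with enough counts (filterByExpr, minimum count 10, minimum total 15) were kept, 17232 genes with 99.86% of reads, all 29 members among them. TMM-scaled counts of the 27 libraries entered 1 edgeR 4.0.16 model (robust glmQLFit, then glmQLFTest; R 4.3.3), and all adjusted p-values are from this test (Benjamini-Hochberg) unless another source is named. SE is the size of the log2 fold change divided by the root of the F statistic. Member CPM is after TMM scaling, and marker sums are before it. Fits were tested on simulated data. Alternatives were DESeq2 1.42.0, RLE scaling, other filters, only the 2 groups compared, a replicate block, marker levels as covariates (mean log2 CPM; both keratinocyte lists were added after seeing the data), limma 3.58.1 on log2(FPKM + 1) and log2(FPKM + 0.1), and libraries left out. Shared sequence was counted in 50-base words of GENCODE M21 transcripts. Every pair of libraries within a group differed beyond sampling noise (108 pairs, lowest chi-square per degree of freedom 9.25). Named genes were all 29 members, in full where called or alone at their step, and in each pathway list the 2 called genes with the smallest p, of which some are not reported here. Figures were drawn with matplotlib 3.10.9.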

Additional observations from a re-analysis of the deposited data

Results flagged for a closer look

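In 87 groups of 9 values (29 members in 3 groups), 8 held 1 library farther from its nearest neighbour than 0.493 of the group's range. Chance flags about 1 in 20 groups where values are independent and normally distributed. The values here are CPM without a log, and the members share libraries, so the 8 cannot be set against that rate. Vehicle replicate 7 accounts for 4 of them, in the fatty acid branch: Fasn at 4305 CPM against 1610 CPM in the next library, Acaca at 343.2 against 107.2 CPM, Acly at 758.3 against 397.6 CPM and Acss2 at 74.16 against 53.41 CPM. Acaca also stood apart in Blank replicate 4, at 180.3 against 110.2 CPM. In the sterol branch, Lss stood apart in TDM replicate 7, at 84.64 against 58.49 CPM, Insig1 in Blank replicate 2, at 138.8 against 97.28 CPM, and the sparsely counted Fdps in Blank replicate 5, at 0.4114 against 1.457 CPM.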

How the results depend on the processing

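No call of a member reversed direction in any of the alternatives run. Same-numbered libraries showed no common deviation (median correlation 0.01, 0.06 and -0.01 in the 3 comparisons, own number best in 2 of 9). Correlations of this kind cannot exclude that the numbers pair samples. With the replicate block, 10, 0 and 5 members and 3946, 598 and 2621 genes were called for TDM versus Vehicle, Vehicle versus Blank and TDM versus Blank, against 9, 0 and 5 members and 4090, 475 and 2793 genes without it. Some marker covariates moved counts, and the 2 keratinocyte lists were chosen as covariates after seeing the data. For TDM versus Vehicle, 232 genes and 2 members were called with skeletal muscle, 2319 and 5 with sebaceous gland, 2006 and 4 with suprabasal and 373 and 1 with basal keratinocyte markers. Adipocyte markers left 3599 genes and 8 members. For TDM versus Blank, sebaceous markers left 108 genes and 0 members, while each of the other marker lists gave 2988 to 3577 genes. For Vehicle versus Blank, genes numbered 0 with skeletal muscle, adipocyte or suprabasal markers, 7 with sebaceous and 5 with basal markers, 2 with no filter, 1386 with DESeq2 (2 members), 84 without Vehicle replicates 7 and 8 and 0 without 3, 7 and 8. Leaving out each library gave 3074 to 5537, 0 to 1289 and 2307 to 3073 genes and 7 to 15, 0 to 2 and 4 to 6 members in the 3 comparisons. The cause of these changes was not tested. Of the members called, 7 of 9 against Vehicle and 4 of 5 against Blank were called in all 27 such fits. The authors' deposited table calls 8 of the 9 members against Vehicle, all 5 and also Fasn against Blank, and Dhcr7 for Vehicle versus Blank. Depth limits Fdps, with 7 to 42 reads per library.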
